A study of Mus musculus with 15 samples.

Results

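The genes described here make glutathione, bring in the amino acids it is built from, recycle it and break it down. They are Gclc, Gclm, Gss, Gsr, Slc7a11, Slc3a2, Ggt1, Ggt5, Chac2 and Glrx, 10 genes chosen by name, with earlier results of these data known. They are measured by the 15 array probes whose RefSeq accession belongs to these symbols, out of 56605 probes on the array, and 9 of the 10 genes were among the 34401 features tested. RNA came from whole lung. The mice were females of the outbred stock Crlj:CD1(ICR), aged 11 weeks. The mice ate a powdered diet for 7 days that held permethrin, a pyrethroid insecticide, at 20, 500, 2500 or 5000 ppm, and control mice ate the diet at 0 ppm. Each of the 5 diets had 3 mice and each mouse had 1 array. All mice shared sex, stock, age and days on diet, and no genotype or other treatment is labelled. The question the design poses is how lung RNA levels differ with the dose of permethrin.

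Glutathione is a tripeptide of glutamate, cysteine and glycine and the main small thiol of the cell. It is made in the cytosol in a pair of steps, glutamate joined to cysteine and then glycine added, and cysteine is usually the scarce building block. The lung carries a large pool of it in its epithelium and in the fluid that lines the airspaces. Oxidised glutathione is reduced again with NADPH, and conjugates and glutathione outside the cell are taken apart at the cell surface so that the amino acids return. The transcription factor Nrf2 is known to drive several of these genes through antioxidant response elements, and Atf4 drives cystine uptake through amino acid response elements.

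Promoter sequences from RefSeq, in the GRCm38.p6 build, were at hand for 7 of the 10 genes. These sequences were searched on both strands for TGACNNNGC, the core of the antioxidant response element, and for TGATGNAA, the core of the amino acid response element, in windows from 250 bases before to 50 bases after the start. The promoters of Slc7a11 and Gclm are shown because their genes are described in full below and each holds 1 of these cores. The 250 bases before the start are printed 5′ to 3′ on the gene's strand, and capitals mark the matches. The Slc7a11 stretch is chr3:50443614-50443863 on the minus strand, and the Gclm stretch is chr3:122245307-122245556 on the plus strand.
Slc7a11: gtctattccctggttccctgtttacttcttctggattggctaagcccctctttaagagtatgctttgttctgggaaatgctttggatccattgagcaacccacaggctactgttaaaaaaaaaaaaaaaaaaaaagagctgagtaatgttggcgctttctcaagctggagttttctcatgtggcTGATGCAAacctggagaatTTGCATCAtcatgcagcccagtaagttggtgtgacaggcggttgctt
Gclm: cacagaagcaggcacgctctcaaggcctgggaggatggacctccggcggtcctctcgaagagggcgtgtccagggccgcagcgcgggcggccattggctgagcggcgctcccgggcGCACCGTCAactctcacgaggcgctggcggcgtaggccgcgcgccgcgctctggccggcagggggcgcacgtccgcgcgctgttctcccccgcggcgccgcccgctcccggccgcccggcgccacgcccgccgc
The Slc7a11 promoter held the amino acid response core 2 times, 66 to 59 bases before the start on the gene's strand and 47 to 40 bases before it on the opposite strand. Of all 32851 promoters in the table, 3.97% held this core. The Gclm promoter held the antioxidant response core once, 134 to 126 bases before the start on the opposite strand, and 12.4% of all promoters held it. Alternative promoters of Ggt1 held the antioxidant core as well, while the windows of Gss, Chac2, Glrx and Slc3a2 held neither set of letters. A match is a description of the letters in this window and is not evidence that a factor binds there.

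Levels are given as log2 of the background-subtracted spot signal relative to the 75th percentile of the same array, so 0 marks that percentile and a step of 1 is a doubling. Levels of different probes are not comparable with each other, because each probe has its own brightness. The lung markers Sftpc of alveolar type 2 cells, Scgb1a1 of club cells, Foxj1 of ciliated cells, Ager of alveolar type 1 cells and Pecam1 of endothelium were well above background on all 15 arrays. Between 70.7% and 87.0% of an array's probes were well above background and no spot was saturated. The arrays came from 2 slides. Slide 1 held the control mice, the 20 ppm mice and 500 ppm mice 1 and 2, and slide 2 held 500 ppm mouse 3 and all mice at 2500 and 5000 ppm, so the higher doses and the slide overlap. Mouse 3 at 500 ppm and mouse 3 at 2500 ppm stood apart on the first principal component, with 36.5% of the variance. Their file headers alone carry an image extraction status of 1, with 0 on the other 13 arrays, and mouse 3 at 2500 ppm had 274 outlier spots against 104 to 145 elsewhere. Control mouse 1 and 20 ppm mouse 1 stood apart on the next, with 17.9%. In RNA from whole lung, fewer cells of a type and less RNA per cell cannot be told apart.

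At 5000 ppm, the levels of Slc7a11, the transport subunit for cystine, of Gclc, Gclm and Gss, which make glutathione, and of Gsr, which reduces it, lay above every control mouse, while Slc3a2, the partner of Slc7a11, overlapped the controls. The groups did not overlap, with 5000 ppm higher, for 6 of the 9 genes tested, which were Gclc, Gclm, Gss, Gsr, Slc7a11 and Chac2, against 12.9% of all features. With limma and Benjamini-Hochberg adjustment over all features, 0 of the 9 passed an adjusted p of 0.05, against 0.0407% of all features. Without adjustment 5 of the 9 had p under 0.05 and were higher, against 3.04% of all features. The median difference of the 9 was 0.59 on the log2 scale, against 0.07 over all features. Slc7a11 passed the filter on low signals through the 5000 ppm diet alone and so had to differ there. Without it 5 of 8 genes did not overlap, 4 of 8 had an unadjusted p under 0.05, and the median was 0.42. The genes with the largest differences at 5000 ppm were Slc7a11, Gclc and Gss, and the others had smaller differences or intervals that span 0.

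**Figure D1:**
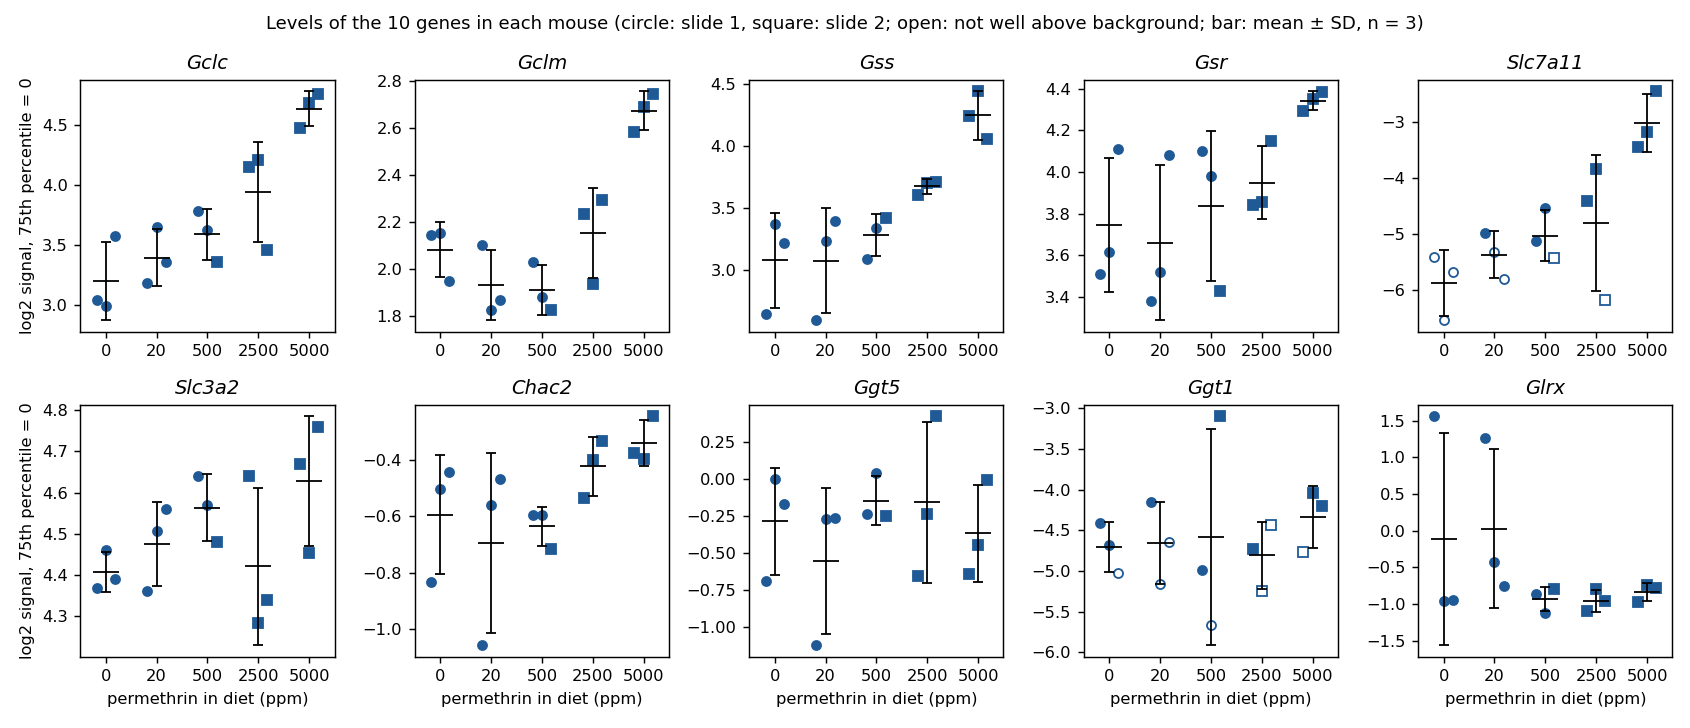
Log2 level of each of the 10 genes (vertical axis, 0 is the array's 75th percentile, with a separate range per panel) in the 3 mice of each diet (horizontal axis, permethrin in ppm), with the mean and SD as bars. Circles are slide 1, squares slide 2, and open points are not well above background. For Gclc, Gclm, Gss, Gsr and Slc7a11 the 3 mice at 5000 ppm sit above all other mice, while Glrx is high in control mouse 1 (1.56) and 20 ppm mouse 1 (1.26).

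Cystine enters the cell through an exchanger made of Slc7a11, the transport subunit known as xCT, and Slc3a2, the heavy chain that carries it to the membrane. Slc7a11 was near the limit of the array in mice on the control diet, with log2 levels of −5.42, −6.53 and −5.68, none of them well above background. At 5000 ppm its levels were −3.45, −3.18 and −2.46, all well above background. Every mouse at 5000 ppm was above every other mouse in the study. No control array measured the gene, so a stand-in was used for the controls. For each control array it was the lowest signal of any probe still well above background (or the Slc7a11 value, if higher). Against this stand-in, Slc7a11 was 4.34-fold higher at 5000 ppm. It is not a strict limit. On control mouse 2 that lowest signal was −4.91, yet a Ggt5 probe at −4.80 was not well above background. The fitted log2 difference was 2.85 ± 0.52 (SE, 3 mice against 3; limma adjusted p = 0.141), from means of −5.88 and −3.03. Because the gene was tested only by virtue of its signal at 5000 ppm, this difference is a description.

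Between these extremes the number of mice with a measurable Slc7a11 signal was 1 of 3 at 20 ppm, 2 of 3 at 500 ppm and 2 of 3 at 2500 ppm. The levels were −4.98, −5.33 and −5.80 at 20 ppm, then −5.12, −4.54 and −5.43 at 500 ppm, then −4.41, −3.84 and −6.17 at 2500 ppm. Mouse 3 at 2500 ppm was thus at the level of the controls, while the other mice on that diet were above all mice on lower doses. This is 1 of the arrays that stood apart. Over all 3 mice Slc7a11 at 2500 ppm was 1.27-fold higher than the stand-in for controls, with 2 of 3 arrays measuring it. Without mouse 3 at 2500 ppm the fitted difference at 5000 ppm was the same, 2.85, with an SE of 0.37, and it remains a description.

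Slc3a2, which also serves other amino acid exchangers, hardly varied. Its levels were 4.37, 4.46 and 4.39 in controls and 4.67, 4.45 and 4.76 at 5000 ppm, and the groups overlapped. The log2 difference was 0.22, with a 95% interval from −0.08 to 0.52 (limma adjusted p = 0.967). The 95% interval of the fitted Slc7a11 difference ran from 1.72 to 3.98. It is a description, since the filter kept that gene for its signal at 5000 ppm and no control array measured it. The genes were not tested against each other. At the doses between, the Slc3a2 levels were 4.36, 4.51 and 4.56 at 20 ppm, 4.64, 4.57 and 4.48 at 500 ppm, and 4.64, 4.28 and 4.34 at 2500 ppm. No step between neighbouring diets in the order of the means separated the mice, and all 15 Slc3a2 levels lay between 4.28 and 4.76.

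Synthesis starts with glutamate-cysteine ligase, whose catalytic subunit is Gclc and whose modifier subunit, which lowers feedback inhibition by glutathione, is Gclm. The levels of Gclc were 3.04, 2.99 and 3.58 in controls, 3.18, 3.65 and 3.36 at 20 ppm, and 3.79, 3.62 and 3.36 at 500 ppm. They were 4.15, 4.21 and 3.46 at 2500 ppm and 4.47, 4.68 and 4.75 at 5000 ppm. The mean was higher at each higher dose, but neighbouring diets overlapped up to 2500 ppm, and only the step from 2500 to 5000 ppm separated the mice. At 5000 ppm Gclc was 2.69-fold the control level (95% interval 1.90 to 3.81). On the log2 scale that is 1.43 ± 0.23 (SE, 3 mice against 3; limma adjusted p = 0.0763), rank 17 of 34401 by p.

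Over the 5 dose ranks Gclc rose by 0.34 ± 0.05 per rank on the log2 scale (SE, 15 mice; limma adjusted p = 0.0258). It was the 1 gene of the 9 to pass on this trend, against 0.142% of all features. An unadjusted p under 0.05 with a positive slope was found for 5 of the 9, Gclc, Gclm, Gss, Gsr and Slc7a11, against 5.77% of all features. Without Slc7a11, which the filter kept for its signal at 5000 ppm, it was 4 of 8. The call for Gclc is close to its threshold. It ended with the mouse number as a block (limma adjusted p = 0.0528), with slide as a random term (0.448), with the array median as scale (0.261), with normexp background correction (0.0939) and without mouse 1 of control and 20 ppm (0.169). It also ended when any 1 of 8 mice was left out, namely control mice 1 and 2, 20 ppm mouse 3, 2500 ppm mice 1 and 2, or 5000 ppm mice 1, 2 and 3, with slopes from 0.32 to 0.36 and adjusted p from 0.0505 to 0.121.

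Gclm showed no such gradient. Its levels were 2.15, 2.15 and 1.95 in controls, 2.10, 1.82 and 1.87 at 20 ppm, and 2.03, 1.88 and 1.82 at 500 ppm. At 2500 ppm they were 2.23, 1.93 and 2.29, overlapping the controls, and at 5000 ppm they were 2.58, 2.69 and 2.75, above all other mice. The difference of 5000 ppm from control was 1.51-fold (95% interval 1.21 to 1.87), or 0.59 ± 0.14 on the log2 scale (limma adjusted p = 0.435). Gclm is among the steadiest transcripts on the array, with a within-diet SD of 0.13, lower than that of all but 3.81% of features. Both subunits first separated from the controls at 5000 ppm, and the difference between them was not tested.

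Gss, glutathione synthetase, adds glycine in the closing step. Its levels were 2.65, 3.37 and 3.22 in controls, 2.60, 3.24 and 3.40 at 20 ppm, and 3.09, 3.34 and 3.42 at 500 ppm. They were 3.61, 3.71 and 3.71 at 2500 ppm and 4.25, 4.44 and 4.05 at 5000 ppm. All mice at 2500 ppm were above all mice on the lower doses, and all mice at 5000 ppm were above those. The difference at 5000 ppm was 2.25-fold (95% interval 1.59 to 3.18), or 1.17 ± 0.23 on the log2 scale (limma adjusted p = 0.199). The slope was 0.29 ± 0.05 per dose rank (limma adjusted p = 0.0520). The 2 lowest Gss values of the study were in control mouse 1 and 20 ppm mouse 1, which stood apart from the other arrays. Without control mouse 1 the difference at 5000 ppm was 0.95.

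Gsr, glutathione reductase, returns oxidised glutathione to its thiol form. Its levels were 3.51, 3.62 and 4.11 in controls and 4.29, 4.35 and 4.38 at 5000 ppm. The mice at 5000 ppm were close together and above all other mice, while the controls spread over a wider range. The difference was 1.51-fold (95% interval 1.07 to 2.14), or 0.60 ± 0.23 on the log2 scale (limma adjusted p = 0.918). At the doses between, the levels were 3.38, 3.52 and 4.08 at 20 ppm, 4.10, 3.98 and 3.43 at 500 ppm, and 3.84, 3.86 and 4.15 at 2500 ppm. Each of these diets overlapped the controls, and the separation appeared between 2500 and 5000 ppm.

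Glrx, glutaredoxin, uses glutathione to release it from proteins that carry it as a mixed disulfide. Its levels were 1.56, −0.96 and −0.94 in controls, 1.26, −0.43 and −0.75 at 20 ppm, and −0.87, −1.12 and −0.80 at 500 ppm. They were −1.10, −0.80 and −0.97 at 2500 ppm and −0.97, −0.75 and −0.79 at 5000 ppm. Control mouse 1 and 20 ppm mouse 1 were far above the other 13 mice, which lay between −1.12 and −0.43 over all diets. These are the arrays that stood apart on the second component. The difference at 5000 ppm was −0.72 ± 0.60 (SE; limma adjusted p = 0.967) with all arrays, and it was 0.12 without control mouse 1, so its direction rested on that mouse. Mean levels of alveolar type 2 markers were also highest on these 2 arrays, at 5.80 and 5.88, against 5.08 to 5.55 on the others. Those of endothelial markers were highest there too, at 4.53 and 4.54, against up to 4.31 on the others. Those of alveolar type 1 markers were lowest there, at 5.06 and 5.28, against 5.40 or more. The part of these shifts in the Glrx values was not tested.

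Glutathione is broken down outside the cell by the gamma-glutamyltransferases, of which Ggt1 is the main form and Ggt5 a relative known for cleaving leukotriene C4. Inside the cell Chac2 degrades it. Ggt1 was dim, with its probe well above background on 8 of 15 arrays, and it did not pass the filter on low signals. Its levels were −4.40, −4.68 and −5.02 in controls and −4.76, −4.04 and −4.20 at 5000 ppm, with overlap. Its highest level, −3.10, was in 500 ppm mouse 3, an array that stood apart. Ggt5 levels were −0.69, 0.00 and −0.17 in controls and −0.65, −0.45 and −0.01 at 5000 ppm. They ran from −1.12 to −0.26 at 20 ppm, from −0.25 to 0.04 at 500 ppm and from −0.66 to 0.42 at 2500 ppm. The groups overlapped fully, and the difference was −0.08 (95% interval −0.75 to 0.59; limma adjusted p = 0.983).

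Chac2 levels were −0.84, −0.50 and −0.44 in controls and −0.37, −0.40 and −0.25 at 5000 ppm. The mice at 5000 ppm were all above the controls, by a narrow margin over the highest of these. The difference was 0.26 (95% interval −0.11 to 0.62; limma adjusted p = 0.967). At 2500 ppm its levels were −0.54, −0.40 and −0.33, which overlapped both the controls and 5000 ppm. At 20 ppm they were −1.06, −0.56 and −0.47, and at 500 ppm −0.60, −0.60 and −0.72. The lowest Chac2 values of the study were in control mouse 1 and 20 ppm mouse 1, and without control mouse 1 the difference at 5000 ppm was 0.14.

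**Figure D2:**
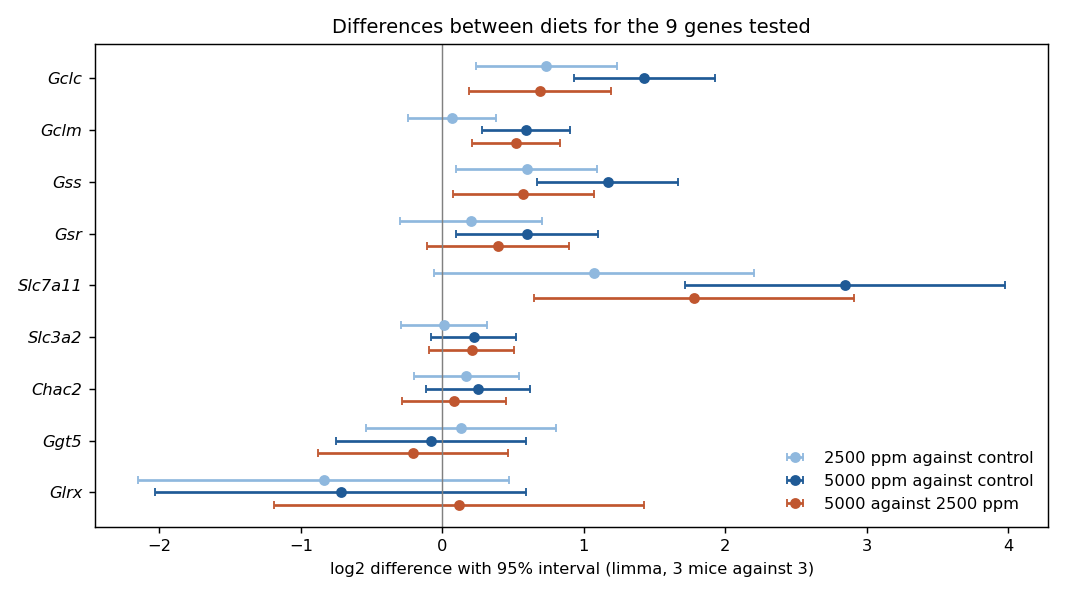
Log2 difference with its 95% interval from limma (horizontal axis) for the 9 genes tested (vertical axis), for 2500 and 5000 ppm against control and for 5000 against 2500 ppm, 3 mice in each group. Slc7a11 (2.85), Gclc (1.43) and Gss (1.17) lie farthest above 0 at 5000 ppm, and the intervals of Slc3a2, Chac2, Ggt5 and Glrx cross 0 in all 3 comparisons. The Slc7a11 values are descriptions, since the filter kept the gene for its signal at 5000 ppm and no control array measured it.

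At 2500 ppm the log2 differences of Gclc, Gclm, Gss and Gsr from control were smaller than at 5000 ppm. Gss was the 1 gene of the 9 whose mice were all above the controls, against 8.83% of all features. Gclc differed by 0.74 ± 0.23 (SE; limma adjusted p = 0.334) and Gss by 0.60 ± 0.23 (adjusted p = 0.463). Without control mouse 1 the Gss difference was 0.38, and with the mean of its probes it was 0.25. Gclc and Gss, 2 of the 9, had an unadjusted p under 0.05, all higher, against 5.52% of all features, and 0 of 9 passed after adjustment, against 0% of all features. Gclm differed by 0.07 and Gsr by 0.20, with intervals across 0. Against 2500 ppm, whose arrays are also on slide 2, the mice at 5000 ppm were all higher for 5 of 9 genes, Gclc, Gclm, Gss, Gsr and Slc7a11, against 8.12% of all features. An unadjusted p under 0.05 was reached by 4 of these, against 1.78%, with log2 differences of 0.69 for Gclc, 0.52 for Gclm, 0.57 for Gss and 1.78 for Slc7a11. Without 2500 ppm mouse 3, which stood apart, Slc7a11 differed by 1.10 and Gclc by 0.45. Leaving Slc7a11 out of the count, 4 of 8 did not overlap and 3 of 8 had an unadjusted p under 0.05. With limma 0 of the 9 passed after adjustment (smallest adjusted p 0.718), against 0% of all features. These comparisons share control mice or the mice at 5000 ppm, so their values are not independent.

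At 500 and 20 ppm none of the 9 genes passed with limma, and none had an unadjusted p under 0.05, against 0% of all features adjusted and 2.84% and 1.48% unadjusted. The 1 gene whose 500 ppm mice were all above controls was Slc3a2, with levels of 4.64, 4.57 and 4.48 and a difference of 0.16, against 4.53% of all features. At 20 ppm it was 0 of 9, against 1.5%. The medians of the 9 genes were 0.14 at 500 ppm and 0.00 at 20 ppm, against 0.12 and −0.03 over all features. Against the stand-in for controls described above, which is not a strict limit, Slc7a11 was 1.08-fold higher at 500 ppm, with 2 of 3 arrays measuring it. Within slide 1, which leaves out 500 ppm mouse 3, Gclc differed from control by 0.50 at 500 ppm (limma adjusted p = 0.994).

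Because dose and slide overlap, the 5000 ppm comparison was also fitted with the slide as a term. A fixed slide term rests on 500 ppm mouse 3 alone to set the slides against each other. That array lay farthest out on the first principal component and had an extraction status of 1. With this term the differences were 1.77 for Gclc (limma adjusted p = 0.0148) and 1.21 for Gsr (0.0484). For Slc7a11 the difference was 3.45, a description, since the filter kept the gene for its signal at 5000 ppm. Gclm and Gss did not pass there, at 0.72 (0.103) and 0.97 (0.168). That fit called 4952 of the 34401 features, against 14 without the term. With slide as a random term the differences were 1.54 for Gclc (adjusted p = 0.433) and 3.04 for Slc7a11 (0.889). All 5 genes named above as higher stayed above 0 in both fits. The differences of 5000 against 2500 ppm lie within slide 2 and were the same in both fits.

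For 4 genes there was more than 1 probe, and the probes of Gss and Ggt5 did not vary alike. The dim Gss probe, A_66_P136921, was well above background on all 15 arrays but differed by 0.18 ± 0.52 at 5000 ppm, against 1.17 ± 0.23 for the bright one, A_55_P2738714. Their correlation over 15 arrays was −0.17. The dim probe was highest in 500 ppm mouse 3 (−0.41), 20 ppm mouse 1 (−0.73), control mouse 1 (−0.75) and 2500 ppm mouse 3 (−1.03), the 4 arrays that stood apart. With the mean of the 2 probes the Gss difference at 5000 ppm was 0.68.

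The other Slc7a11 probe, A_52_P368057, was not well above background on any array. Its signals at 5000 ppm, −5.53, −5.76 and −5.24, were the highest 3 of its 15 values, against −6.24, −7.02 and −6.28 in controls. For Slc3a2 the 2 probes gave 0.22 and 0.23 at 5000 ppm, with a correlation of 0.28. For Ggt5 the 2 kept probes gave −0.08 and 0.06, with a correlation of −0.25; the brighter, which stands for the gene, carries a RefSeq accession of a non-coding transcript of Ggt5. The remaining Ggt5 probe was dim, well above background on 8 arrays.

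**Figure D3:**
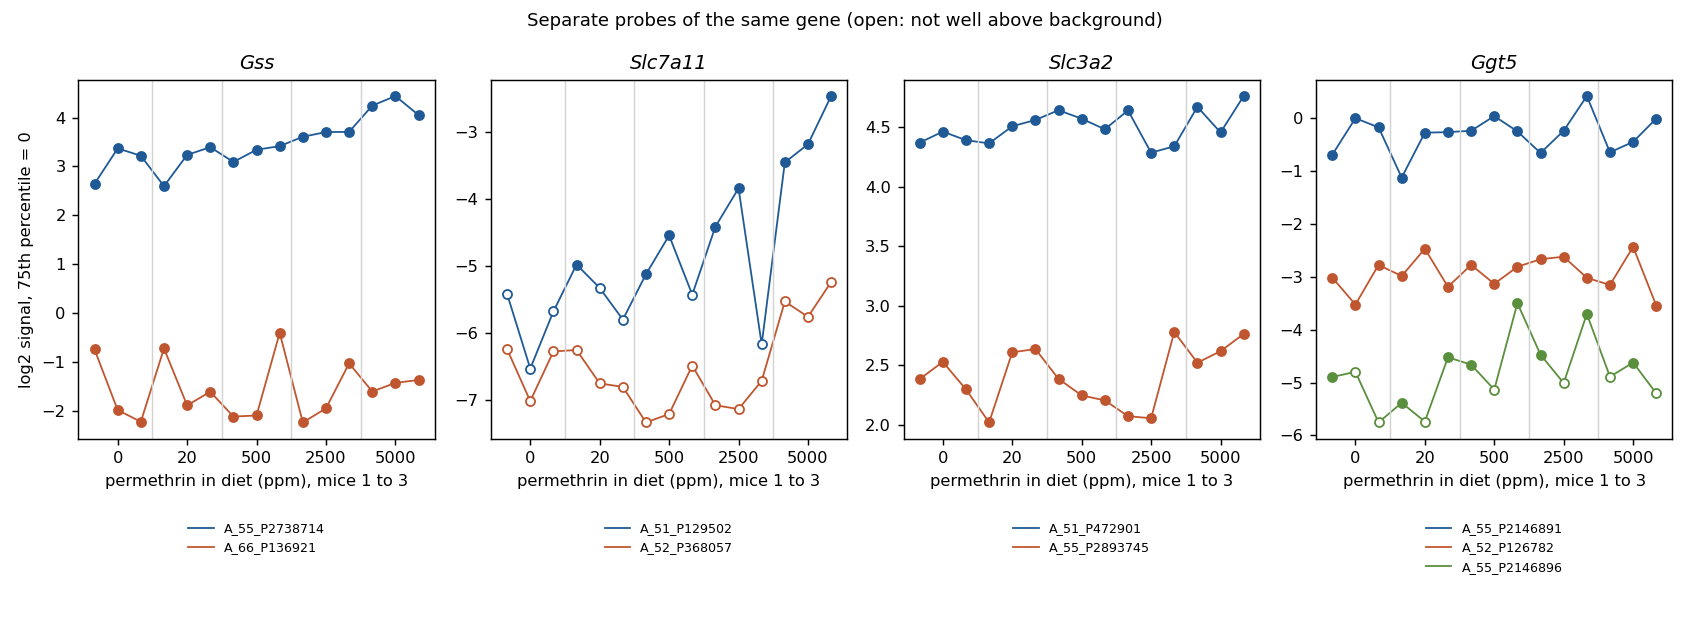
Log2 level (vertical axis, 0 is the array's 75th percentile) of every probe for the 4 genes with more than 1, over the 15 arrays in diet order (horizontal axis, mice 1 to 3 within each permethrin dose in ppm), with open points not well above background. The bright Gss probe climbs from 2.65 to 3.37 in controls to 4.05 to 4.44 at 5000 ppm, while the dim Gss probe peaks on 4 arrays of other diets.

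Among the genes themselves, Gclc and Slc7a11 had the highest Pearson correlation over the 15 arrays, 0.91, and 0.65 after the diet means were taken out. Within diets Ggt5 and Chac2 (0.84), Gss and Chac2 (0.75) and Gsr and Chac2 (0.70) correlated more highly, and Gss and Glrx ran opposite (−0.87). Gclc and Gss correlated at 0.82 and at 0.11 within diets. Gclc and Gclm correlated at 0.67 and at −0.47 within diets. The arrays in these values share their diets and slides, so they are given as descriptions.

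Of 19259 other genes, those most like Gclc over the 15 arrays were Cbr3, a carbonyl reductase (r = 0.95), and Txnrd1, cytosolic thioredoxin reductase (0.95). Slc7a11 was most like Cbr3 (0.85) and Gpx2, a glutathione peroxidase of epithelia (0.84). Gclm was most like the proteasome subunit Psmb5 (0.92) and 2210408F21Rik (0.90), and Gss most like the P450 Cyp39a1 (0.95) and biliverdin reductase B, Blvrb (0.94). Gsr was most like Cables1 (0.91) and sepiapterin reductase, Spr (0.89). Slc3a2 followed Zfp689 and Armt1 (both 0.84), Ggt5 followed Zfp729b (0.94) and Ttc7 (0.92), and Chac2 followed Tbca and Chchd3 (both 0.96). Glrx matched the dipeptidase Cndp2 and Ykt6 (both 0.99). After the diet means were taken out, the values of Slc7a11 were 0.35 and 0.38 and those of Gclm 0.48 and 0.45. Those of Gclc were 0.74 and 0.72, and those of the other genes ran from 0.77 to 0.99. Only 8 of the 15 Slc7a11 levels were well above background. The Cndp2 level was 1.16 and 1.09 on the arrays of control mouse 1 and 20 ppm mouse 1, the same pair of high arrays as for Glrx, and −2.83 to −1.84 elsewhere.

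Genes around the pathway were read from lists. Of 16 genes that supply cysteine and glutamate, 0 passed at 5000 ppm and 13 were above 0, against 60.6% of all features, with a median of 0.19. In that list Cbs, the enzyme that starts transsulfuration, was 0.30 ± 0.09 (SD, n = 3) in controls and 1.09 ± 0.13 at 5000 ppm, a difference of 0.80 ± 0.28 (SE; limma adjusted p = 0.888). Cth, the next enzyme of that route, differed by 0.65 ± 0.45 with control mouse 1, which was low at −3.36, and by −0.05 without it. Of 10 measured genes that break down glutathione and its products, 0 passed and the median was 0.03, with Ggt6 at 0.68 and Cndp2 at −1.05. Without control mouse 1 Cndp2 differed by 0.23, so its direction rested on that mouse.

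Of 14 enzymes that use glutathione as a cofactor, 0 passed, 11 were above 0 and the median was 0.23. Their widest differences were in Gsto1, an omega-class glutathione transferase, at 0.99 ± 0.34 (SE; limma adjusted p = 0.843), and in Esd, which hydrolyses S-formylglutathione, at 0.71 ± 0.16 (adjusted p = 0.268). Of 11 carriers of glutathione and its conjugates 0 passed, with Abcc3, an exporter of conjugates, at 0.74 ± 0.18 (adjusted p = 0.458) and Slc25a10 at −0.67, or 0.05 without control mouse 1. Of 12 regulators 0 passed, with Sqstm1, which binds the Nrf2 repressor Keap1, at 0.48 and Atf3 at −0.74. Without control mouse 1 they differed by 0.27 and −0.16. Of 14 Atf4 targets 0 passed, 13 were above 0 and the median was 0.31, with Asns, asparagine synthetase, at 0.62 and Ddit4 at 0.71.

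The other list was of 26 genes widely used as readouts of Nrf2, of which 8 rose at 5000 ppm (limma, adjusted over all features) and 10 on the dose trend, with 25 of 26 above 0 at 5000 ppm and a median of 0.52. Over all features 14 and 49 passed in these comparisons. With slide as a random term Nqo1 and Gsta2 passed in each, 2 of 5 features in all, and with the array median as scale 2 and 3 did. With each array left out in turn, 2 to 8 passed at 5000 ppm, with 2 without control mouse 1 or without 5000 ppm mouse 2 or 3, 3 without control mouse 2 or 5000 ppm mouse 1, and 8 to 11 on the trend. Nqo1, a quinone reductase, rose by 2.22 ± 0.21 (SE; adjusted p = 0.000963). Gsta2, an alpha-class glutathione transferase, rose by 2.56 ± 0.21 (0.000315). Gpx2 rose by 2.0 ± 0.24 (0.00931), Srxn1, sulfiredoxin, by 1.61 ± 0.19 (0.00931), Txnrd1 by 1.29 ± 0.16 (0.0106) and Cbr3 by 1.55 ± 0.20 (0.0122). Beside these the log2 differences of Gclc, Gss, Gclm and Gsr were 1.43, 1.17, 0.59 and 0.60. The comparison between these genes and the list was not tested.

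Markers of lung cell types moved with some of these values. All 9 club cell markers were above 0 at 5000 ppm (median 0.32, 0 past the threshold), and their mean level was 5.38 to 5.96 there, against 5.07 to 5.18 in controls. Of 9 ciliated cell markers 8 were above 0 (median 0.46), with a mean level of 1.29 to 1.87 at 5000 ppm and 1.16 to 1.26 in controls. At 2500 ppm the club cell mean was 5.15 to 6.09, overlapping the controls, and the ciliated cell mean was 1.34 to 1.86, above them. The alveolar type 2 mean lay below every control at 2500 ppm (5.08 to 5.18) and at 500 ppm (5.15 to 5.33), against 5.40 to 5.80 in controls. The B cell mean was also below every control at 2500 ppm, at −0.90 to 0.016 against 0.017 to 0.23. Mean levels of alveolar type 1, alveolar type 2, endothelial, alveolar macrophage, neutrophil, T cell, B cell and smooth muscle markers overlapped between controls and 5000 ppm. Those of cardiac muscle markers (7 of 8 above 0, median 0.71) and liver markers (5 of 8, 0.06) overlapped as well. The mean of the 2 thymus markers measured was lower at 5000 ppm, at −0.14 to −0.053, against −0.048 to 0.15 in controls. All 8 T cell markers (median −0.16) and all 7 B cell markers (median −0.35) were below 0 at 5000 ppm. Above 0 were all 7 alveolar type 1 (median 0.22), 3 of 10 alveolar type 2 (−0.17) and 2 of 10 alveolar macrophage markers (−0.28). The same held for 3 of 7 endothelial (−0.18), 7 of 10 neutrophil (0.19) and 4 of 6 smooth muscle markers (0.62). Over all features 60.6% were above 0, and 3.04% were higher with an unadjusted p under 0.05. That p was reached, higher, by 2 of 9 club cell, 4 of 9 ciliated cell and 3 of 6 smooth muscle markers. It was also reached by 1 of 7 alveolar type 1 and 1 of 10 neutrophil markers. In the lower direction it was reached by 1 of 8 T cell and 1 of 10 alveolar macrophage markers. The share of all features in that direction was not counted. None of these markers passed the threshold with limma. The part of these marker shifts in the differences of Gclc, Gclm, Gss, Gsr and Slc7a11 was not tested.

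**Figure D4:**
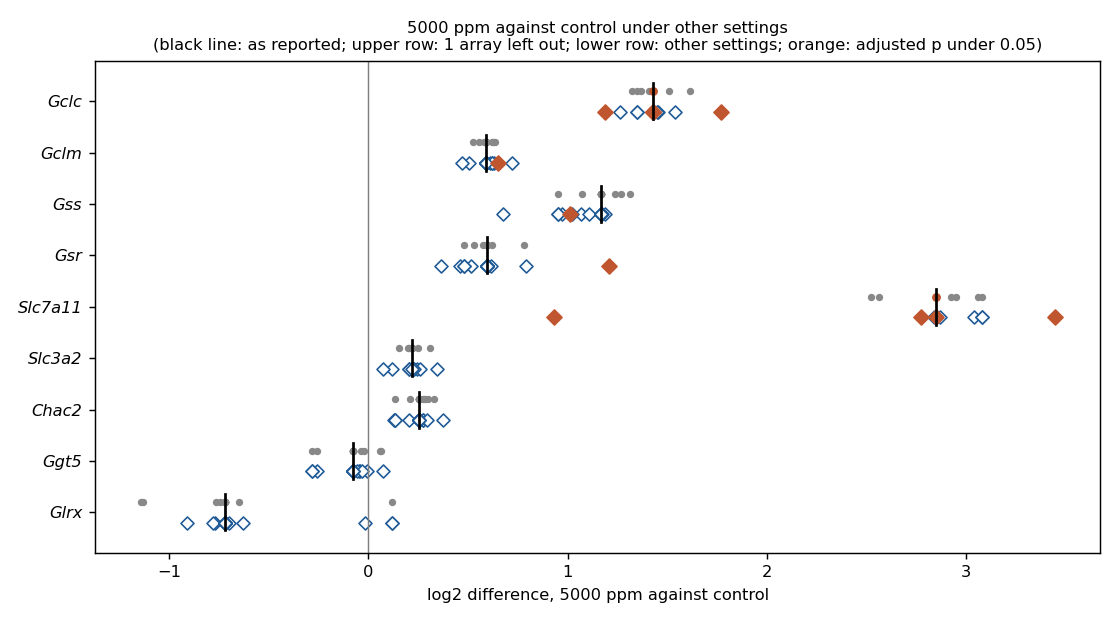
Log2 difference of 5000 ppm against control (horizontal axis) for the 9 genes tested, as reported (black line), with each of 15 arrays left out in turn (dots) and under the other processing settings (diamonds), where orange marks an adjusted p under 0.05. Gclc stays between 1.19 and 1.77 and Slc7a11 between 0.93 and 3.45, and Glrx lies on both sides of 0. Orange points of Slc7a11 are descriptions, since the filter kept the gene for its signal at 5000 ppm.

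Under the other settings tried, Gclc, Gclm, Gss, Gsr and Slc7a11 were above 0 at 5000 ppm in each one that gave a value. The number past the threshold, Slc7a11 included, went from 0 to 4. The filter kept Slc7a11 for its signal at 5000 ppm, so its passing there is a description. Normexp background correction with an offset of 50 gave 0.93 for Slc7a11 in place of 2.85. It was run on median spot and background signals with outlier spots kept. It thus differs from the reported fit in more than the background step. Weighting each array by its quality gave 4 genes past the threshold, Gclc, Gclm, Gss and Slc7a11, in a fit that called 197 features against 14 as reported.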

How the data were processed

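Per the labels' protocols, lung RNA of 15 mice was labelled with Cy3 from 100 ng and hybridised on 1-colour Agilent arrays. Per the file headers, image analysis used Agilent Feature Extraction 10.7.3.1. The deposited scanner files hold the background-subtracted spot intensity, used here. The authors' deposited table of log2 values differed from the log2 scanner signal by 1 constant per array and was used as an alternative. No aligner applies. Control spots and outlier spots were left out, spots of a probe were averaged, and log2 signals were set to each array's 75th percentile. Probes were kept if every array of some diet had them well above background, by the scanner software's call in 50% or more of their spots, which left 43154 of 56605 probes. For a gene the brightest kept probe on average was used. This gave 34401 features, 19289 with a symbol, and 37 of them lacked a value on some array. Probes were named by their RefSeq accession. Their headers give mm9 on slide 1, and no probe coordinates are printed.

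The test was limma 3.58.1 (R 4.3.3) with default settings, 1 coefficient per diet over all 15 arrays, 10 residual degrees of freedom per feature, two-sided, with Benjamini-Hochberg adjustment over all features and a threshold of 0.05. The trend is a slope over the dose ranks. The number of arrays limits the precision. Per the labels the mice of a diet are biological replicates. The script was tested on simulated data.

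All 10 genes are named. Of each other list the genes past the threshold are named (up to 6 by smallest p), or else the 2 with the largest difference at 5000 ppm, and for each gene the 2 symbols with the highest correlation. Genes and lists were chosen with earlier results of these data known. Mouse numbers are shared between diets. Deviations of same-numbered mice correlated above 0.1 in every pair for control and 20 ppm (0.17 to 0.61) and for 500 and 2500 ppm (0.29 to 0.48), and in the other diet pairs they did not, so the numbers were not taken to pair the mice. Alternatives covered background, scale, filter, probe choice, slide, mouse number, array weights, empirical Bayes settings, the coding of dose, and each array left out. Leaving out the pairs of arrays that stood apart, the counts without Slc7a11, and the alternatives for genes of the other lists were chosen after seeing the data.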

Additional observations from a re-analysis of the deposited data

How the results depend on the processing

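The count of the 9 genes past the threshold at 20, 500 and 2500 ppm was 0 under every alternative run. At 5000 ppm it was 1 with normexp, 1 with the filter over all 15 arrays, 3 with slide as a fixed term, 1 with trend and robust empirical Bayes settings, 4 with array weights and 2 without mouse 3 at 500 and at 2500 ppm; leaving out each array gave 0 to 2. For 5000 against 2500 ppm it was 1 (Gclm) with array weights and 1 (Gclm) without the 4 arrays that stood apart, where 499 and 944 of all features passed, against 0 as reported. On the trend it was 2 with normexp (Gss and Slc7a11, while Gclc missed at an adjusted p of 0.0939), and 2 with quantile normalization, with the filter over all 15 arrays, with slide as a fixed term, with trend and robust settings, with dose in ppm, and without mouse 3 at 500 and at 2500 ppm. There it was 4 with array weights, 3 without the 4 arrays apart, and 0 with the array median as scale, with slide as a random term and without mouse 1 of control and 20 ppm; leaving out each array gave 0 to 2, with 2 without 20 ppm mouse 1, 500 ppm mouse 3 or 2500 ppm mouse 3. Slc7a11 is in the 5000 ppm counts with normexp, a fixed slide term, array weights, and without mouse 3 at 500 and 2500 ppm. It is also in the count without 2500 ppm mouse 3 alone. Its passing at 5000 ppm or on the trend is a description, since the filter kept it for its signal at 5000 ppm. The cause of the moves in these counts was not tested.

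Direction reversed in these cases. At 2500 ppm, Gsr was −0.10 with array weights and −0.017 without the 4 arrays apart. Slc3a2 was −0.043 with normexp, −0.012 with quantile normalization, −0.043 with the mean of its probes and −0.00454 without mouse 1 of control and 20 ppm, and −0.095 to 0.082 with each array left out. Ggt5 was −0.24 with array weights, −0.36 without the 4 arrays, −0.072 without mouse 1 of control and 20 ppm, −0.16 without mouse 3 of 500 and 2500 ppm, and −0.16 to 0.38 with each array left out. Glrx was 0.00290 without the 4 arrays. At 5000 ppm, Ggt5 was 0.072 with slide as a fixed term and −0.28 to 0.066 with each array left out, and Glrx was 0.12 without the 4 arrays or without mouse 1 of control and 20 ppm, and −1.14 to 0.12 with each array left out. For 5000 against 2500 ppm, Ggt5 was 0.081 without the 4 arrays or without mouse 3 of 500 and 2500 ppm, and −0.46 to 0.081 with each array left out. On the trend Ggt5 was −0.060 with array weights, −0.074 without the 4 arrays, −0.045 without mouse 1 of control and 20 ppm, −0.00507 without mouse 3 of 500 and 2500 ppm, and −0.017 to 0.053 with each array left out.

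With the mouse number as a replicate block, the count past the threshold was 0 at every dose and for 5000 against 2500 ppm, and 1 on the trend, where the gene was Gss (0.29, adjusted p = 0.0317) and Gclc had an adjusted p of 0.0528. The median of all features at 500 ppm was 0.12 as reported and −0.11 with the array median as scale; at 5000 ppm it was −0.14 with slide as a fixed term. That term called 4952 features at 5000 ppm, against 14 as reported. Signal over background limits Slc7a11 and Ggt1.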
